A study of Mus musculus with 8 samples.

Results

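The clock output regulators described here are 10 genes that carry the rhythm of the liver clock to other genes or are read out directly by it. They were chosen by gene symbol and comprise the PAR-bZIP factors Dbp, Tef and Hlf, their counterpart Nfil3, the DEC repressors Bhlhe40 and Bhlhe41, and the clock targets Ciart, Usp2, Wee1 and Tspan4. All 10 were found, with 1 row each, among the 55421 transcripts of the deposited tables, and all 10 passed the filter on low counts that left 14506 transcripts for testing. The series compared livers of 4 groups with 2 animals each, vehicle-treated or sudachitin-treated and taken at ZT6 or ZT18, where ZT is zeitgeber time in hours after lights on, to ask how sudachitin, a polymethoxyflavone of the citrus fruit sudachi, acts on daytime and nighttime gene expression. All mice were male C57BL/6J animals without any engineered allele named in the labels, bought at 4 weeks of age and killed at 30 weeks. All ate freely a high-fat diet with 45% of calories from fat, and all were gavaged every other day between ZT8 and ZT10, with saline (PBS) in a cohort of 11 control mice or with sudachitin at 100 mg per kg in a cohort of 12. The sources used here do not give the time between the last gavage and collection, and lean mice or mice without gavage were not analysed here.

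In the circadian oscillator, CLOCK and BMAL1 bind E-box sequences and drive their own repressors together with output genes such as Dbp. DBP, TEF and HLF activate genes through D-box sequences, to which the NFIL3 protein binds as a repressor, and in mouse liver the activators are known for driving genes of drug and vitamin B6 metabolism. BHLHE40 and BHLHE41, also called DEC1 and DEC2, and CIART, also called CHRONO, repress CLOCK and BMAL1, while the REV-ERB nuclear receptors repress genes such as Nfil3 through ROR elements.

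Counts in exons came to 13914116 to 17759630.5 per library. The summed CPM (library-size-scaled counts, with TMM factors) of 6 hepatocyte markers was 84793 to 104269, against 50.2 to 111.6 for 6 Kupffer cell and macrophage markers, 76.8 to 100.5 for 5 endothelial, 203.2 to 255.0 for 5 stellate, 6.68 to 13.0 for 4 cholangiocyte and 3.93 to 8.89 for 4 lymphocyte markers, and no marker was at 0 in any library. Cholangiocyte markers moved with time, at 6.68 to 7.99 CPM in the ZT6 livers and 9.71 to 13.0 CPM in the ZT18 livers, and their part in the time differences was not tested. The control ZT18 replicate 1 library was the highest or lowest of the 8 for 38.2% of the tested transcripts, against 17.4% to 27.7% for the other libraries. The titles carry codes that the sources used here do not explain; the code of both mice of a ZT6 group was the same, and no code was shared between groups, so that whatever it marks cannot be told apart from the groups. Each library is named for its own mouse, and all p-values measure the spread between these few mice.

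The promoters of these genes were read for the elements through which the oscillator and the output factors act. RefSeq (GRCm38.p6) gave 10 windows, each from 250 bases before to 50 after an annotated start, for 8 of the 10 genes; Bhlhe40 and Wee1 are named only. Both strands were searched for the E-box CACGTG, the E-box-like CACGTT, the D-box as TTATGTAA or TTACGTAA, and the core of the ROR element as TAGGTCA or TGGGTCA; the motifs do not contain one another. The E-box was in 5 windows of 4 genes, Ciart, Tef, Bhlhe41 and Tspan4, and in 7.15% of all 32851 windows of that length. The ROR element core was in the Nfil3 window and in 6.45% of all windows. The D-box, in 1.06% of all windows, and the E-box-like motif, in 4.68%, were in none of the 10. None of the motifs was in the windows of Dbp, Hlf and Usp2 or in the first Tspan4 window. Bases outside the windows were not searched. The windows with a match are printed 5′ to 3′ on the gene's own strand with the match in capitals, 1 window per gene, because they hold elements through which factors of the oscillator are known to act.
Ciart, chr3:95882179-95882478, minus strand, 3 E-boxes: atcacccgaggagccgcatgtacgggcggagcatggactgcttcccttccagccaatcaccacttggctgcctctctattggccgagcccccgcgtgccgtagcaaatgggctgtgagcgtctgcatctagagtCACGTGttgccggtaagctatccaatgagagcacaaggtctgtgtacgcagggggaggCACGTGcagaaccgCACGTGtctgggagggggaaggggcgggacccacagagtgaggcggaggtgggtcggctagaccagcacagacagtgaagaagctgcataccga
Tef, chr15:81802423-81802722, plus strand, E-box: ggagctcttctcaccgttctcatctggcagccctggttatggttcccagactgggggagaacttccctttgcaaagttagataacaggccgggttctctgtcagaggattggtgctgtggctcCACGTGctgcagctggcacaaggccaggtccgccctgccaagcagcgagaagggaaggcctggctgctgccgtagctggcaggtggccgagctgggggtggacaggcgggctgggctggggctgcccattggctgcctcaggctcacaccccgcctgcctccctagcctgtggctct
Bhlhe41, chr6:145865371-145865670, minus strand, E-box: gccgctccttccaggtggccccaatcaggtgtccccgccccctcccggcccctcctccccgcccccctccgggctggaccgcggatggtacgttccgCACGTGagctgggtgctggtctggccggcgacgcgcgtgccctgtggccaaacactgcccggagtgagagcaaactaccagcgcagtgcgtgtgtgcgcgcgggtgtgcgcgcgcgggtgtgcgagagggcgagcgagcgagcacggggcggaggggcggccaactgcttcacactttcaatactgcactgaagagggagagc
Tspan4, chr7:141476130-141476429, plus strand, E-box: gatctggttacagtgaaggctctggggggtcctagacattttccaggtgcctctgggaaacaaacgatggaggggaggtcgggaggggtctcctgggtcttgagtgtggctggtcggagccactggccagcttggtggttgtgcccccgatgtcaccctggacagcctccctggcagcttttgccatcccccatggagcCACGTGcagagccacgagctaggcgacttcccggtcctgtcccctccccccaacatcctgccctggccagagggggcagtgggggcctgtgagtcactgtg
Nfil3, chr13:52980990-52981289, minus strand, ROR element core, which lies on the opposite strand: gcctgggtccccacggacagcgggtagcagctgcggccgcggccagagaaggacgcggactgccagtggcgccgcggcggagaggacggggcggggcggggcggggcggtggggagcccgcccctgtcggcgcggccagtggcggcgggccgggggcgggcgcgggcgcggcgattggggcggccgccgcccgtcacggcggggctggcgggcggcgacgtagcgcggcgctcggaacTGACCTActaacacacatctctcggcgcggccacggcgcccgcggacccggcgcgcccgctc

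The 3 E-boxes of Ciart began 116, 58 and 44 bases before the start, that of Bhlhe41 153 bases before it and that of Tef 127 bases before it, and a second Tef window, 8993 bases from the start of the counted transcript, had another at 138 bases. The Tspan4 window shown is the second of that gene and starts from a site 1140 bases from the counted one, with its E-box 51 bases before that site. The first Tspan4 window, with its start 4 bases from the counted one, held no E-box. The Nfil3 element lay 12 bases before the start. The RefSeq start was 3 bases from the start of the counted transcript for Ciart, 34 for Nfil3, 138 for Bhlhe41 and 252 for the Tef window shown; that Tef window, with its E-box, lies wholly inside the counted transcript. These matches are descriptions of letters, and binding was not measured.

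Across the 4 ZT6 and 4 ZT18 livers, 7 of the 10 genes passed the test of time, 5 higher at ZT18 (Usp2, Wee1, Tspan4, Bhlhe40 and Nfil3) and 2 lower (Dbp and Bhlhe41), in an edgeR quasi-likelihood fit of time and treatment with adjusted p under 0.05. Of all tested transcripts 3.68% passed, 1.86% higher and 1.82% lower. Bhlhe41 passed the low-count filter only through its ZT6 livers, where it was high. The median log2 change was 0.60 over the 10 genes and 0.02 over all tested, and the median size of the change was 1.03 against 0.18. In 8 of the 10 genes the ZT6 and ZT18 livers did not overlap, which held for 13.0% of all tested transcripts. Within control livers 4 of the 10 passed (background 0.524%), 3 higher (0.214%) and Dbp lower (0.31%), and all 10 had groups without overlap (42.4%). Within sudachitin livers 3 passed (background 0.186%), 2 higher (0.11%) and Dbp lower (0.0758%), and 8 had groups without overlap (45.9%). With 1 library left out, 0 to 4 of the 10 passed within either treatment. In bulk liver, fewer cells of a type and less RNA per cell cannot be told apart.

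**Figure D1:**
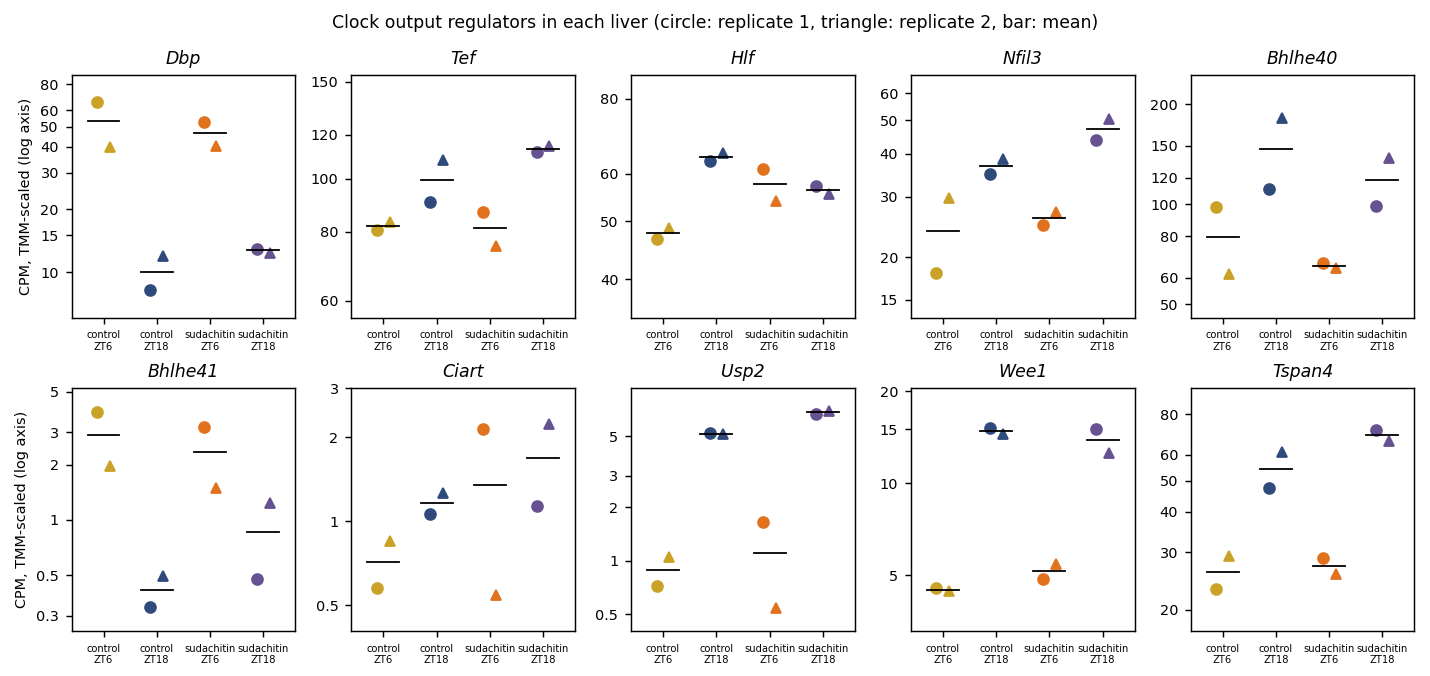
Level of each gene in every liver, in TMM-scaled CPM on a log axis, by group; circles are replicate 1, triangles replicate 2 and bars group means. Dbp lies at 40 to 66.1 CPM in the ZT6 livers and at 8.15 to 12.9 CPM in the ZT18 livers, and Wee1 shows the opposite order, at 4.44 to 5.46 and 12.6 to 15.2 CPM.

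Dbp is the PAR-bZIP activator that CLOCK and BMAL1 drive directly, and its transcript, with 4 exons, lies on the plus strand at chr7:45705088-45710203 (GRCm38). Its level was 66.1 and 40 CPM in the control ZT6 livers and 8.15 and 11.9 CPM in the control ZT18 livers. In sudachitin livers it was 52.8 and 40.3 CPM at ZT6 and 12.9 and 12.4 CPM at ZT18. Every ZT6 liver was above every ZT18 liver, and within each time the treatments lay close together or overlapped. Over both treatments Dbp fell by 2.14 on the log2 scale (SE 0.20, edgeR adjusted p = 0.0017), 4.40-fold lower at ZT18. That call held with each library left out in turn, with adjusted p of 0.0011 to 0.0085. Within control livers the log2 change was -2.41 (SE 0.27, edgeR adjusted p = 0.014), and without control ZT6 replicate 1 the adjusted p was 0.065. Libraries carried no strand, and 29.34% of the exon bases of Dbp overlap Sphk2 on the other strand, so that reads of the pair cannot be told apart there. The Sphk2 row held 1295.0 to 1621.5 counts at ZT6 and 646.5 to 1151.5 at ZT18, against 590.5 to 918.5 and 146.0 to 217.5 for Dbp.

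Tef and Hlf, the other PAR-bZIP activators, did not pass the test of time. Tef (chr15:81802421-81826863, plus strand, 4 exons) stood at 80.7 and 83.3 CPM in control and 87.1 and 75.5 CPM in sudachitin livers at ZT6. At ZT18 it stood at 90.5 and 108.0 CPM in control and 111.5 and 114.4 CPM in sudachitin livers. The ZT18 livers were thus all above the ZT6 livers, by a small margin. The difference, 0.37 on the log2 scale with an SE of 0.09, missed the threshold (edgeR adjusted p = 0.063). It also missed it in 7 of the 8 fits with 1 library left out, with edgeR adjusted p up to 0.17, and passed without control ZT18 replicate 1 (0.018) and in DESeq2 (0.021). Hlf (chr11:90336536-90390895, minus strand, 4 exons) stood at 46.6 and 48.7 CPM in control ZT6 and 63.0 and 65.0 CPM in control ZT18 livers. In sudachitin livers it was 61.1 and 54.0 CPM at ZT6 and 57.3 and 55.5 CPM at ZT18. The control groups were apart and the sudachitin groups overlapped. The log2 difference between times was 0.42 (SE 0.12, edgeR adjusted p = 0.19) in control and -0.03 (SE 0.12, edgeR adjusted p = 0.94) in sudachitin livers.

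Nfil3 encodes the repressor that binds the same D-box sequences, and its transcript has 2 exons at chr13:52967209-52981073, minus strand. It was at 18 and 29.7 CPM in control and 24.8 and 27.1 CPM in sudachitin livers at ZT6. Its ZT18 levels were 35.0 and 38.6 CPM in control and 43.9 and 50.4 CPM in sudachitin livers. Every ZT18 liver was above every ZT6 liver. Nfil3 rose by 0.74 on the log2 scale over both treatments (SE 0.15, edgeR adjusted p = 0.030), 1.67-fold. The call was lost in 6 of the 8 fits with 1 library left out, with adjusted p up to 0.10, and it held without control ZT6 replicate 2 or control ZT18 replicate 1.

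The balance of these D-box factors was compared within each liver in FPKM, which corrects for exon length. The FPKM ratio of Dbp to Nfil3 was 4.06 and 1.49 in control and 2.36 and 1.64 in sudachitin livers at ZT6. At ZT18 the FPKM ratio was 0.257 and 0.342 in control and 0.325 and 0.271 in sudachitin livers. Dbp was thus the more abundant transcript in all 4 ZT6 livers and Nfil3 in all 4 ZT18 livers. The sum of Dbp, Tef and Hlf was 23.1 to 29.4 FPKM across the ZT6 livers and 17.4 to 19.1 FPKM across the ZT18 livers. Dbp made up 44.2% to 57.5% of that sum at ZT6 and 12.3% to 16.5% at ZT18, while the summed FPKM divided by that of Nfil3 was 3.36 to 7.05 at ZT6 and 1.71 to 2.23 at ZT18. The summed activator transcripts therefore spanned a narrower range than Dbp alone, and they exceeded Nfil3 in every liver. These are transcript levels, and the proteins were not measured.

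**Figure D2:**
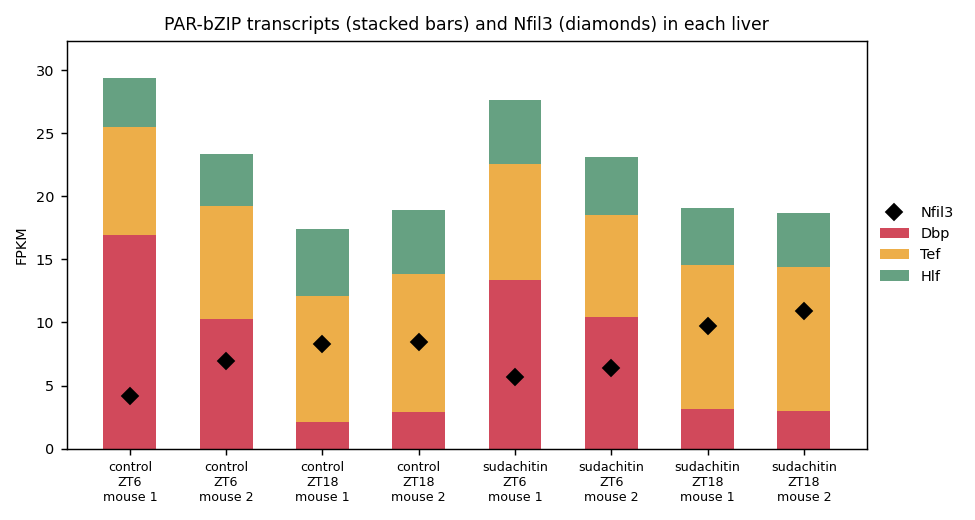
Stacked bars give the FPKM of Dbp, Tef and Hlf in each of the 8 livers and diamonds the FPKM of Nfil3; the axis starts at 0. The Dbp segment is 44.2% to 57.5% of the bar at ZT6 and 12.3% to 16.5% at ZT18, while the Nfil3 diamonds are higher at ZT18.

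Bhlhe40 and Bhlhe41 encode related repressors, and their transcripts changed in opposite directions. Bhlhe40 (chr6:108660629-108666925, plus strand, 5 exons) was at 97.9 and 61.5 CPM in control and 66.3 and 64.2 CPM in sudachitin livers at ZT6. At ZT18 it was at 110.8 and 181.9 CPM in control and 99.0 and 138.1 CPM in sudachitin livers. The ZT18 livers were all above the ZT6 livers, although the highest ZT6 liver and the lowest ZT18 liver lay close together. Bhlhe40 rose by 0.87 on the log2 scale (SE 0.19, edgeR adjusted p = 0.043), 1.83-fold. With 1 library left out the call held only without control ZT18 replicate 1, and the adjusted p reached 0.12 in the other fits. Bhlhe41 (chr6:145858243-145865558, minus strand, 5 exons) was at 3.89 and 1.96 CPM in control and 3.20 and 1.5 CPM in sudachitin livers at ZT6. At ZT18 it was at 0.335 and 0.492 CPM in control and 0.474 and 1.23 CPM in sudachitin livers, from 5.5 to 21 counts per library. All ZT6 livers were above all ZT18 livers. Bhlhe41 fell by 2.06 on the log2 scale over both treatments (SE 0.46, edgeR adjusted p = 0.043), 4.17-fold lower at ZT18. Its ZT18 livers alone would not have passed the low-count filter, so that it was tested only because of its ZT6 livers. The call held in 3 of the 8 fits with 1 library left out, with adjusted p up to 0.14 in the rest. Of its exon bases 11.84% overlap the unconfirmed transcript Gm43909 on the other strand, whose row held 0.0 to 16.5 counts. The FPKM ratio of Bhlhe40 to Bhlhe41 was 40.9 to 84.3 in the ZT6 livers and 220.7 to 729.2 in the ZT18 livers, so that Bhlhe40 was the more abundant of the pair throughout.

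Wee1 encodes the kinase that holds CDK1 inactive before mitosis and is a known E-box target in mouse liver. Its transcript (chr7:110122046-110143286, plus strand, 11 exons) was at 4.53 and 4.44 CPM in control and 4.86 and 5.46 CPM in sudachitin livers at ZT6. The ZT18 livers had 15.2 and 14.5 CPM in control and 15 and 12.6 CPM in sudachitin livers. The times were far apart and the mice of each group close together. Wee1 rose by 1.57 on the log2 scale over both treatments (SE 0.12, edgeR adjusted p = 0.00066), 2.97-fold, and by 1.72 within control (SE 0.17, edgeR adjusted p = 0.0075) and 1.42 within sudachitin livers (SE 0.17, edgeR adjusted p = 0.023). Over both treatments the call held with each library left out, with adjusted p up to 0.0057. Within control livers it was lost without either control ZT6 mouse (edgeR adjusted p of 0.073 and 0.10), and within sudachitin livers it was lost in 6 of the 8 fits, those without a sudachitin or a control ZT6 library, with adjusted p up to 0.19.

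Usp2 encodes a ubiquitin-specific protease, and its counted transcript has 14 exons at chr9:44067078-44093929, plus strand. It was at 0.72 and 1.05 CPM in control and 1.66 and 0.546 CPM in sudachitin livers at ZT6, from 8.0 to 26.5 counts. The ZT18 livers had 5.19 and 5.13 CPM in control and 6.70 and 6.93 CPM in sudachitin livers. Every ZT18 liver was above every ZT6 liver, and the spread between mice was wide at ZT6 and narrow at ZT18. Usp2 rose by 2.57 on the log2 scale over both treatments (SE 0.27, edgeR adjusted p = 0.0024), 5.92-fold. The call held with each library left out, with adjusted p up to 0.017. Its only RefSeq window starts 17842 bases from the start of the counted transcript, so that the window describes another start of the gene. Of its exon bases 6.03% overlap Gm49380 on the other strand, a row with 108.0 to 205.5 counts that exceeded those of Usp2 in all 8 libraries.

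Tspan4 encodes a tetraspanin membrane protein, and its transcript has 8 exons at chr7:141475240-141493427, plus strand. It was at 23.2 and 29.2 CPM in control and 28.9 and 25.7 CPM in sudachitin livers at ZT6. Its ZT18 levels were 47.5 and 61.1 CPM in control and 71.6 and 66.3 CPM in sudachitin livers. The times did not overlap, and the sudachitin livers were the highest of the ZT18 livers. Tspan4 rose by 1.19 on the log2 scale over both treatments (SE 0.12, edgeR adjusted p = 0.0021), 2.29-fold, and the call held with each library left out, with adjusted p up to 0.013. Chid1 on the other strand overlaps 19.92% of its exon bases, and the Chid1 row held 409.5 to 681.0 counts with no separation of the times.

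Ciart encodes a repressor of CLOCK and BMAL1, and its transcript has 6 exons at chr3:95878505-95882231, minus strand. It was at 0.576 and 0.85 CPM in control and 2.15 and 0.546 CPM in sudachitin livers at ZT6. At ZT18 it was at 1.06 and 1.26 CPM in control and 1.13 and 2.23 CPM in sudachitin livers. The times overlapped and the level was low, with 8.0 to 38.0 counts per library. The log2 difference between times was 0.47 (95% interval -0.48 to 1.41, edgeR adjusted p = 0.58) and did not pass; the sudachitin ZT6 mice alone had 35.0 and 8.0 counts.

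**Figure D3:**
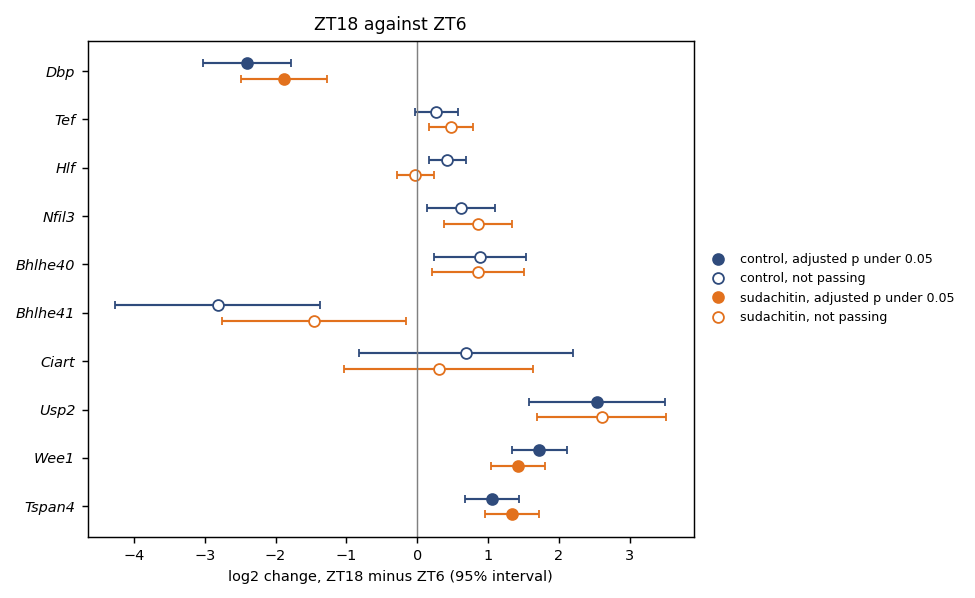
Log2 change from ZT6 to ZT18 of each gene in control and in sudachitin livers, with 95% intervals; filled points have an adjusted p under 0.05. Dbp, Wee1 and Tspan4 are filled in both treatments, and Usp2 in control livers, with an adjusted p of 0.058 in sudachitin livers. Each of these calls within a treatment was lost in at least 1 of the fits with 1 library left out.

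The order of the transcript levels in FPKM differed between the times. In control ZT6 livers Dbp had the highest mean, 13.6 FPKM, and its range overlapped that of Bhlhe40 at 12.1 FPKM. Tef (8.78 FPKM), Tspan4 (8.46 FPKM), Nfil3 (5.56 FPKM) and Hlf (3.98 FPKM) followed, and Wee1, Ciart, Bhlhe41 and Usp2 were all under 1, at 0.616, 0.236, 0.222 and 0.173 FPKM, where neighbours from Ciart on overlapped. In control ZT18 livers Bhlhe40 came first with 21.6 FPKM, overlapping Tspan4 with 17.2 FPKM, and Dbp was sixth with 2.52 FPKM, overlapping Wee1 with 2.02 FPKM. Usp2, lowest at ZT6, reached 1.01 FPKM at ZT18, above Ciart with 0.386 FPKM and Bhlhe41 with 0.0299 FPKM. In sudachitin livers Dbp was also first at ZT6, with 11.9 FPKM, and Tspan4 was first at ZT18, with 21 FPKM and no overlap with Bhlhe40 at 16.9 FPKM. Bhlhe41 was last in both ZT18 groups.

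None of the 10 genes passed edgeR's quasi-likelihood test of sudachitin against control livers, at ZT6, at ZT18 or over both times. Of all tested transcripts 0.0% passed at ZT6 (308 had an unadjusted p under 0.05), 0.0138% at ZT18 (945 unadjusted) and 0.0207% over both times (640 unadjusted), and DESeq2 also called none of the 10. The median size of the log2 difference was 0.24 over the 10 genes against 0.12 over all tested at ZT6, and 0.34 against 0.17 at ZT18. At ZT6 the treatments did not overlap in 2 of the 10, Hlf and Wee1, against 31.7% of all tested transcripts. At ZT18 they did not overlap in 6, Dbp, Tef, Hlf, Nfil3, Usp2 and Tspan4, against 30.8%, with sudachitin higher in all of these but Hlf. The 30.8% covers both directions, and the share of all tested transcripts in each direction was not counted.

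The intervals differed in width from gene to gene. For the activators at ZT18 the 95% interval of the sudachitin minus control log2 difference was -0.29 to 0.97 for Dbp, around 0.34, and -0.11 to 0.49 for Tef, around 0.19. For Nfil3 at ZT18 the difference was 0.36, with an interval of -0.11 to 0.83, and for Tspan4 it was 0.35, with an interval of -0.02 to 0.72. Every one of these intervals includes 0. For Hlf the interval was 0.01 to 0.54 at ZT6, around 0.27, and -0.44 to 0.08 at ZT18, around -0.18, and the edgeR adjusted p was 1.0 and 0.83. Wee1 had differences of 0.20 at ZT6 (interval -0.21 to 0.60) and -0.10 at ZT18 (interval -0.46 to 0.25). Bhlhe40 had -0.29 at ZT6 (interval -0.94 to 0.36) and -0.30 at ZT18 (interval -0.95 to 0.34). The low-count genes were the least determined. Bhlhe41 had intervals of -1.48 to 0.87 at ZT6 and -0.54 to 2.66 at ZT18, Ciart of -0.56 to 2.41 and -0.82 to 1.89, and Usp2 of -0.76 to 1.42 and -0.38 to 1.18. Each of these intervals includes 0.

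**Figure D4:**
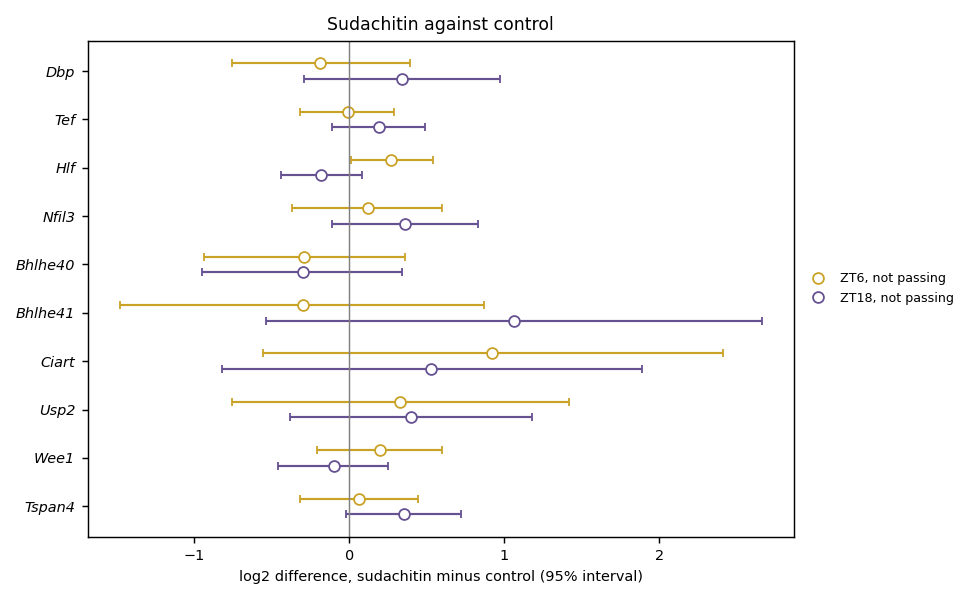
Log2 difference of sudachitin minus control for each gene at ZT6 and at ZT18, with 95% intervals; no gene has an adjusted p under 0.05. Hlf is above 0 at ZT6 (0.27) and below 0 at ZT18 (-0.18), and the intervals of Bhlhe41 and Ciart are the widest.

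The change with time was also compared between the treatments, as the interaction. It passed for 0 of the 10 genes and for 0.0% of all tested transcripts in edgeR (548 had an unadjusted p under 0.05), and DESeq2 called none of the 10. Hlf had an interaction of -0.45 on the log2 scale (SE 0.16, 95% interval -0.83 to -0.08, edgeR adjusted p = 1.0), with both sudachitin livers above both control livers at ZT6 and below them at ZT18. For Dbp the interaction was 0.53 (interval -0.32 to 1.38), for Usp2 0.07 (interval -1.33 to 1.47) and for Bhlhe41 1.36 (interval -0.63 to 3.34). Time changes that passed in one treatment and not the other are therefore not shown to differ between them.

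Mice of the same group differed more in some of these genes than in others. The size of the log2 difference between the 2 control ZT6 mice had a median of 0.47 over the 10 genes and 0.18 over all tested transcripts, with Dbp 0.72, Bhlhe40 0.67 and Bhlhe41 0.94 higher and Nfil3 0.72 lower (-0.72) in replicate 1. In the other groups the medians over the 10 genes were 0.24, 0.19 and 0.16, for control ZT18, sudachitin ZT6 and sudachitin ZT18, against 0.27, 0.18 and 0.22 over all tested. The widest differences were those of Ciart (1.76) and Usp2 (1.41) between the sudachitin ZT6 mice and of Bhlhe41 (-1.18) between the sudachitin ZT18 mice. Sudachitin ZT6 replicate 2, which had the lower Ciart and Usp2, also had the highest summed Kupffer cell and macrophage markers (111.6 CPM), and the part of that in its values was not tested.

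Genes of the oscillator were read beside the output regulators. Of 11 listed genes, 3 passed as higher at ZT18 over both treatments (Arntl, Per2 and Cry1) and 2 as lower (Nr1d1 and Nr1d2). Of all tested transcripts 1.86% passed as higher and 1.82% as lower. The median log2 change was 0.02, as over all tested transcripts, and the median size of the change was 0.65 against 0.18. With 1 library left out, 1 to 3 were higher, the fewest without control ZT6 replicate 1, and 2 lower. Nr1d1, the gene of the repressor REV-ERB alpha, was at 91.3 to 119.9 CPM in the ZT6 livers and 4.86 to 7.52 CPM in the ZT18 livers and fell by 4.25 on the log2 scale (SE 0.17, edgeR adjusted p = 9e-06). Nr1d2, its paralogue, fell by 1.22 (SE 0.11, edgeR adjusted p = 0.0017). Cry1, whose protein represses the CLOCK-BMAL1 pair, rose by 1.81 (SE 0.13, edgeR adjusted p = 0.00066), and Per2, which acts with it, was at 10.0 to 22.9 CPM at ZT6 and 36.3 to 74.0 CPM at ZT18 and rose by 1.65 (SE 0.27, edgeR adjusted p = 0.016). Dbp was thus high together with Nr1d1 and Nr1d2, and Nfil3 was high when both were low, as a description of these 2 times. Whether any of these genes acted on another was not tested.

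**Figure D5:**
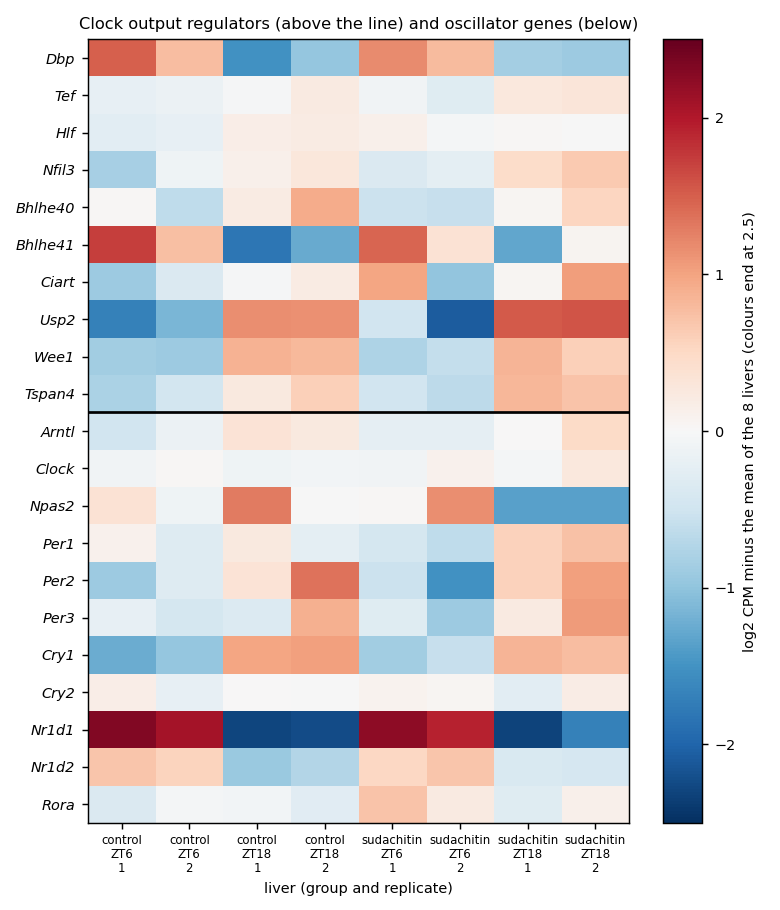
Log2 CPM of the 10 output regulators (above the line) and 11 oscillator genes (below) in each liver, minus the mean of the 8 livers; colours end at 2.5. Dbp and Bhlhe41 share the colours of Nr1d1 and Nr1d2, high at ZT6, while Usp2, Wee1 and Tspan4 share those of Cry1, high at ZT18.

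Some known targets of the PAR-bZIP factors rose at the time when Dbp RNA was low. Of 15 listed targets, 6 passed over both treatments, all higher at ZT18 (Por, Nr1i3, Pdxk, Cyp2b10, Cyp7a1 and Acot1), and 0 were lower. Cyp2b10, at 0.0654 to 0.144 CPM in the ZT6 livers, passed the low-count filter only through ZT18 livers, where it was high. Of all tested transcripts 1.86% passed as higher and 1.82% as lower. All 15 targets had a log2 change above 0, the smallest 0.02, with a median of 0.90 against 0.02 over all tested. The share of all tested transcripts above 0 was not counted. Within control livers 13 of the 15 were above 0 and 2 below, and within sudachitin livers all 15 were above. With 1 library left out, 3 to 6 of the 15 passed, the fewest without sudachitin ZT6 replicate 1, and 13 to 15 were above 0, the fewest without control ZT18 replicate 1 or sudachitin ZT18 replicate 2. Control ZT18 replicate 1 stood far above the other ZT18 livers in 3 targets picked out after their values were seen: Cyp2a4 was at 50.4 CPM in it and 1.05 to 2.19 CPM in the others, Acot3 at 128.1 and 14.0 to 24.7 CPM, and Cyp2b10 at 2.68 and 0.422 to 0.889 CPM. Cyp7a1, the rate-limiting enzyme of bile acid synthesis, was at 14.0 to 33.2 CPM in the ZT6 and 49.6 to 141.8 CPM in the ZT18 livers and rose by 2.0 on the log2 scale (SE 0.32, edgeR adjusted p = 0.012). Pdxk, the kinase that makes the active form of vitamin B6, rose by 0.82 (SE 0.10, edgeR adjusted p = 0.0038). Por, which passes electrons to cytochromes P450, rose by 1.04 (SE 0.14, edgeR adjusted p = 0.0073), and Acot1, an acyl-CoA thioesterase, by 1.39 (SE 0.21, edgeR adjusted p = 0.010). Within control livers 0 of the 15 targets passed the test of time (0.524% of all tested), and within sudachitin livers 1, Por (0.186%). No target passed in a comparison of sudachitin with control. Of 8 other clock-controlled genes, 3 passed over both treatments as higher at ZT18, against 1.86% of all tested transcripts. Lonrf3 rose by 1.75 (SE 0.24, edgeR adjusted p = 0.0071). Nampt, an enzyme of NAD synthesis, rose by 1.05 (SE 0.15, edgeR adjusted p = 0.0088). Gys2, the liver glycogen synthase, rose by 0.63 (SE 0.10, edgeR adjusted p = 0.010). The cell cycle inhibitor gene Cdkn1a had a change of 1.87 (SE 0.53, edgeR adjusted p = 0.091) and did not pass, and it was at 12.9 CPM in control ZT18 replicate 1 and 1.24 to 5.39 CPM in the other livers.

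Among 8922 tested transcripts with a mean of at least 5 CPM, the 5 with the highest Pearson correlation of log2 CPM to Dbp over the 8 libraries were Gtf2ird1 (0.994), Itih2 (0.98), Nrbp1 (0.978), Cyb561d1 (0.977) and Osgep (0.977). All were higher in the ZT6 livers, by much less than Dbp: Gtf2ird1 was at 14.5 to 17.1 CPM at ZT6 and 9.60 to 11.1 CPM at ZT18. For Wee1 the highest included Cry1 (0.992), Ces1d (0.979), Ttc17 (0.978) and Pnrc1 (0.978), all higher at ZT18. Ces1d, a carboxylesterase gene, was at 369.0 to 466.0 CPM at ZT6 and 929.2 to 1415.3 CPM at ZT18. These libraries fall into the 2 times, so that the correlations describe mainly that split, and no test was made of them.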

How the data were processed

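RNA with an integrity number above 9.0 from 8 livers was read as 150-base pairs from poly(A)-selected libraries without strand information, per the labels' protocols. The authors' tools were Trimmomatic 0.39, STAR 2.7.2a and HOMER, per the submitters' processing notes. One table, as deposited by the authors, gives estimated counts per transcript over the exons of 55421 mm10 transcripts in steps of 0.5, which were rounded with 0.5 up; 19.69% to 21.89% of the values of a library ended in 0.5. The other deposited table gives FPKM, a count per exon length and header total, per the file headers. How multiply aligned reads were counted is not given in the sources used here. Members were matched by symbol, with positions from GENCODE mouse release 21. edgeR 4.0.16 (R 4.3.3) with TMM factors, its default filter (14506 transcripts kept) and the quasi-likelihood F test was fitted to all 8 libraries, as 4 group means or as time plus treatment, with Benjamini-Hochberg adjustment over all tested and a threshold of 0.05. SE is the log2 change divided by the square root of F, and 95% intervals use that SE. Alternatives were DESeq2 1.42.0, other factors, no filter, limma 3.58.1 on log2(FPKM + 0.1) and log2(FPKM + 1), fewer groups, a replicate block and each library left out. The fit was tested on simulated data. The named genes are the 10 members, up to 4 genes with the smallest p over both treatments from each list and the 5 transcripts most like Dbp and Wee1, without predicted genes; the other genes named as passing are all those of their list. One gene that this rule names is not reported here. Members and lists were chosen with earlier results of these data known.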

Additional observations from a re-analysis of the deposited data

Results flagged for a closer look

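Hlf was the only one of the 10 genes with the treatments apart, without overlap, in opposite directions at ZT6 and ZT18. It was picked by that pattern from these same values. Treatments without overlap were seen in 31.7% of all tested transcripts at ZT6 and 30.8% at ZT18. How many of them had opposite directions was not counted. The interaction of Hlf was -0.45 on the log2 scale (SE 0.16, edgeR unadjusted p = 0.022, edgeR adjusted p = 1.0). The difference between the times thus did not pass over all tested transcripts. Its sign was negative under all alternatives tried, from -0.543 to -0.371 with 1 library left out and -0.457 in DESeq2. The pattern by which Hlf was picked fixes that sign when 1 library is left out, so that the kept sign is no further evidence.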

How the results depend on the processing

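With 2 mice per group, precision is limited by the spread between mice, and Bhlhe41, Ciart and Usp2 had low counts, down to 5.5, 8.0 and 8.0 in a library. Of 1019 values of the 70 log2 changes of members under alternatives, 896 kept direction and side of the threshold, 66 lost the call, 18 gained it and 39 changed sign. Members called over time in control livers, 4 as reported, were 7 without a filter, 2 with limma on log2(FPKM + 0.1), 0 with only the groups compared and 0 to 4 with 1 library left out. In sudachitin livers, 3 as reported, they were 6 in DESeq2, 7 without a filter, 1 with limma on log2(FPKM + 0.1) and 0 to 4 with 1 library left out, with 0 without any 1 of the 4 sudachitin libraries. Over both treatments, 7 as reported, they were 4 to 8. Nothing in the labels says that the replicate numbers pair the samples. The correlations of deviations, -0.20 to 0.28 between groups, do not settle whether mice with the same number share anything. With the replicate block 2, 2 and 5 members passed. The cause of these shifts was not tested. Genes called over time in control, in sudachitin and over both treatments, 76, 27 and 534 as reported, were 267, 268 and 928 in DESeq2, 881, 861 and 1629 without a filter, and 5 to 323, 1 to 185 and 164 to 1048 with 1 library left out; in control they were 43 with the block, 41 with limma and 4 with only the groups compared, and in sudachitin 53 with only those. For treatment at ZT6, ZT18, the interaction and treatment over both times, 0, 2, 0 and 3 as reported, they were 7, 43, 14 and 15 in DESeq2, 67, 488, 259 and 309 without a filter, and 0 to 3, 0 to 194, 0 to 13 and 2 to 6 with 1 library left out; at ZT6 1 passed with the block and 10 with only the groups compared, and at ZT18 0 with either or with limma. No member passed in these 4 comparisons under any alternative run. None of the values that changed sign was called as reported. They were 0.003 for Tef at ZT6 without a filter, 0.001 for the interaction of Bhlhe40 with the block, and -0.004 for Bhlhe41 and -0.016 for Wee1 over both times with limma on log2(FPKM + 1). With 1 library left out, log2 values that changed sign spanned, for time in sudachitin livers, -0.126 to 0.047 for Hlf and -0.367 to 1.592 for Ciart. For treatment at ZT6 they spanned -0.504 to 0.218 for Dbp, -0.111 to 0.091 for Tef, -0.198 to 0.53 for Nfil3, -0.583 to 0.084 for Bhlhe40, -0.946 to 0.265 for Bhlhe41, -0.378 to 1.581 for Ciart, -0.685 to 0.902 for Usp2 and -0.099 to 0.239 for Tspan4. At ZT18 they spanned -0.617 to 0.094 for Bhlhe40, -0.039 to 0.94 for Ciart and -0.234 to 0.017 for Wee1. For the interaction they spanned -0.17 to 0.556 for Nfil3, -0.388 to 0.376 for Bhlhe40, -1.047 to 0.912 for Ciart and -0.5 to 1.086 for Usp2, and over both times -0.091 to 0.286 for Dbp, -0.032 to 0.101 for Hlf, -0.182 to 0.631 for Bhlhe41 and -0.026 to 0.114 for Wee1. Bhlhe41 was not tested in 1 fit of only the groups compared.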
